A study of Mus musculus with 6 samples.

Results

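The genes described here are 42 blood-cell-restricted kinases, phosphatases, adaptors, surface proteins and actin regulators, examined in fat progenitors with and without rosiglitazone. Members were chosen by gene symbol, with earlier results of these arrays known, and by detection: a probe was kept when its detection p-value was under 0.05 on at least 3 of the 6 arrays. Of the 42 genes, 41 had a probe under their symbol, with 78 probes in all, and 34 genes had at least 1 kept probe, 48 of the 16442 kept probes among the 45281 on the array. The cells were stromal-vascular cells that carried GFP, sorted from the white fat (inguinal, interscapular and gonadal) of adult mice aged 2 to 6 months. All animals were of the AdipoTrak strain, PPARgamma-tTA;tetO-H2B-GFP, where the transactivator tTA, under the Pparg promoter, turns on a histone fused to GFP. The 3 untreated arrays came from mice on normal chow, and the 3 arrays of the rosiglitazone group from mice given the same chow with 0.0075% rosiglitazone, a thiazolidinedione agonist of PPARgamma, for 2 months. Each array stands for a pooled cohort of 3 to 4 mice, and the arrays of a group therefore differ as pools do. The sort gate follows the Pparg promoter, which is not confined to progenitors: macrophages are known to express Pparg as well.

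Blood cells share a signalling machinery that most other cells lack. Receptors with tyrosine-based motifs recruit Src-family and Syk-family kinases, adaptors gather phospholipase C gamma 2 and phosphoinositide 3-kinases around them, and the phosphatases CD45, SHP-1 and SHIP-1 set the strength of the signal. Downstream, Vav1 and Dock2 load Rac with GTP, and WASp, the Hem1-containing WAVE complex, coronin 1A and L-plastin shape the actin cortex for migration and phagocytosis. In fat these genes are known chiefly from macrophages and lymphocytes of the stromal-vascular fraction, and many of them are switched on in myeloid cells by PU.1, an ETS-family transcription factor encoded by Spi1.

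Promoter sequences were available in the RefSeq table (build GRCm38.p6, 250 bases before to 50 after each annotated start) for 31 of the 42 genes, with 40 promoters in all. Both strands were searched. The letters GAGGAAG, a core that PU.1 binds, were present in 16 of these 40 promoters (40%), against 13.6% of all 32851 promoters in the table. The overlapping ETS letters AGGAAGT were present in 18 of 40 (45%), against 9.35% of all promoters, and 11 promoters held both. At least 1 of these motifs was found in 23 of 40 promoters, or 57.5%, against 19.1% of all promoters. These counts are of promoters and not of genes. The annotated promoters of Pik3cg overlap each other, as do those of Ptprc, so a match there may be counted more than once. Among 36 promoters of broadly expressed relatives of these genes, described further on, 3 held GAGGAAG and 3 held AGGAAGT, and 6 of 36 held at least 1. Base composition differed as well: the median promoter held 6 CpG dinucleotides in the blood-cell genes, 27 in the relatives and 7 in the whole table. The strict DR1 element bound by PPARgamma with its partner RXR, a direct repeat of AGGTCA spaced by 1 base, was found in 0 of 40 promoters and in 0.0396% of all promoters. At so low a share, a count of 0 is likely for any 40 promoters, so it says nothing about PPARgamma acting on these genes. The following stretches of 60 bases, all lying before the start site and read 5′ to 3′ along the gene, show where GAGGAAG or its reverse complement, in capitals, lies before the start site of members that fell with rosiglitazone; Arl11, Btk and Cd53 fell too and hold it only after the start. The count by call was 10 of 26 promoters of members that fell, and 6 of 14 promoters of members that did not pass or were not tested, among them Fgr, Pik3cg, Sash3, Dock2 and Inpp5d. Arhgap25 has a pair of annotated start sites.
Arhgap25, chr6:87496328-87496387, minus strand: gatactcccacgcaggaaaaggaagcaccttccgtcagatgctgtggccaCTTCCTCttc
Arhgap25, chr6:87533271-87533330, minus strand: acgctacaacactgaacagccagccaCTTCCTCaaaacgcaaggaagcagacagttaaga
Cd37, chr7:45238840-45238899, minus strand: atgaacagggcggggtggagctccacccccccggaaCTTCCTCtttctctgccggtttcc
Cd72, chr4:43454641-43454700, minus strand: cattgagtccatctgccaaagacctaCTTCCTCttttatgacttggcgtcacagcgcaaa
Laptm5, chr4:130913251-130913310, plus strand: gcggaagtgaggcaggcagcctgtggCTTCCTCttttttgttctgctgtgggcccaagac
Pik3ap1, chr19:41385103-41385162, minus strand: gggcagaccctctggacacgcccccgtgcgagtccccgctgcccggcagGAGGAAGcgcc
Vav1, chr17:57279040-57279099, plus strand: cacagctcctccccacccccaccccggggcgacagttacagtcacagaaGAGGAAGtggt
In Vav1 and Pik3ap1 the match ended 5 bases before the start site, and in Laptm5 it ended 33 bases before it. A match of letters is a description and does not show that a factor was bound in these cells.

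Most of these genes had a lower signal with rosiglitazone. Of the 34 genes with a kept probe, each represented by its brightest probe, 27 fell, 0 rose and 7 did not pass an adjusted p of 0.05 (limma, Benjamini-Hochberg over all 16442 kept probes). Over all 9760 genes measured in the same way, 2.27% fell and 2.87% changed in either direction. The median log2 change of the 34 genes was -1.74, beside 0.04 for all kept probes, and single genes ranged from 1.12-fold to 7.78-fold lower. With the 5 genes that no rosiglitazone array detected set at their bounds, the median was -1.69. The sizes depended on the processing. On the authors' normalized table the median was -1.02, and the fold was over 1.5 times smaller for 21 of the 27 genes that fell, with log2 changes of -1.93 for Dpep2, -1.56 for Cd84 and -1.14 for Arhgap25 beside -2.96, -2.76 and -2.35. By probe, 36 of 48 fell and all 48 had a negative change, beside 1.89% of all kept probes that fell, 0.493% that rose and 2.38% that did either. The groups did not overlap for 32 of the 34 genes, whereas 8.53% of all genes were lower without overlap. The members were listed with earlier results of these data known, so these counts describe the list. In bulk samples such as these, fewer cells of a type and less RNA per cell cannot be told apart. Macrophage markers moved with these genes: 13 of 14 kept markers had a negative change with rosiglitazone, and 12 of them fell. Their part in the result was not tested. Their values and those of other cell types are given after the gene groups.

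**Figure D1:**
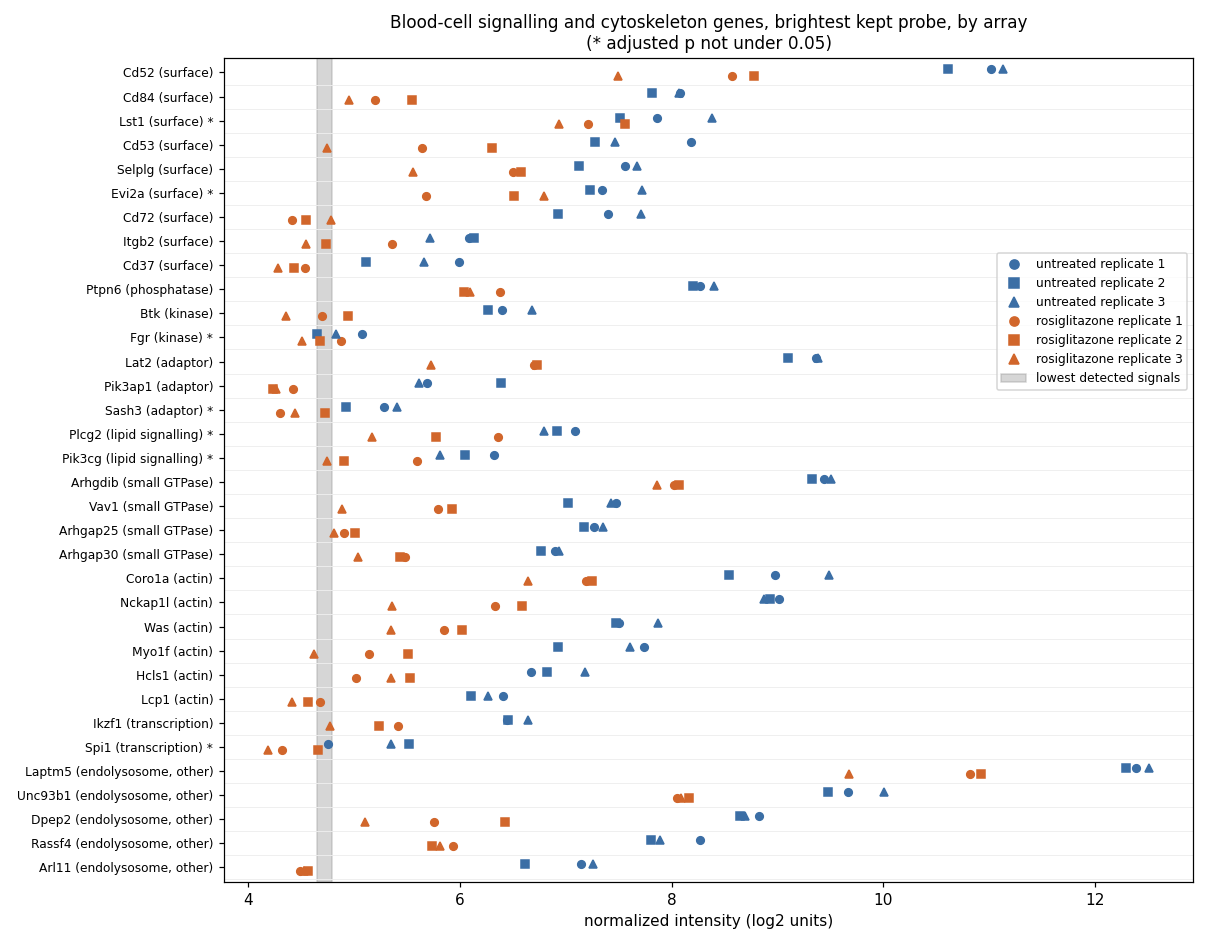
Normalized intensity in log2 units (horizontal axis) of the brightest kept probe of each of the 34 genes on each of the 6 arrays, with untreated arrays in blue, rosiglitazone arrays in orange and a symbol for each replicate; the grey band spans the lowest detected signals of the arrays, 4.65 to 4.79. For 32 genes every orange point lies left of every blue point, and Fgr and Lst1 are the exceptions.

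Detection itself chose the members, so its pattern is given as a description. Of the 34 genes, 23 were detected on all 6 arrays, and 19 of these fell, with a median log2 change of -1.87 for the 23. Another 10 were detected on every untreated array but on fewer rosiglitazone arrays, 5 of them on none; such genes could pass the detection rule through the untreated group alone. Fgr was kept with detection on 2 untreated arrays and 1 rosiglitazone array, just inside the rule. Just outside it lay the only Inpp5d probe, detected on 2 untreated arrays and no rosiglitazone array, with 4.90, 4.61 and 5.22 log2 units untreated and 4.28, 4.67 and 4.30 with rosiglitazone. Inpp5d encodes SHIP-1, which removes the 5-phosphate from the lipid product of phosphoinositide 3-kinase. The remaining genes without a kept probe were Ptprc, Syk, Lcp2, Dock2, Pik3r5 and Cd48. Ptprc encodes CD45, the phosphatase that defines leukocytes; its 4 probes were detected on at most 1 array each and lay between 4.18 and 5.04 log2 units. The single probes of Syk, Dock2, Pik3r5 and Cd48 were detected on 0 arrays, and 1 of 3 Lcp2 probes on 1 array. Absence of signal from a probe says nothing firm about its gene. Lyn had no probe under its symbol in the annotation used here.

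Surface proteins held some of the largest falls. Of 9 kept genes in this group 7 fell, with a median log2 change of -1.24. Cd84 encodes a self-binding receptor of the SLAM family, and its probe gave 8.08, 7.82 and 8.07 log2 units untreated and 5.20, 5.55 and 4.96 with rosiglitazone. All rosiglitazone values lay over 2 log2 units below all untreated values, 6.75-fold lower (SE 0.20 on the log2 scale, adjusted p = 0.00031). The inhibitory lectin-like receptor gene Cd72, best known from B cells, gave 7.40, 6.93 and 7.71 log2 units untreated and 4.41, 4.55 and 4.78 with rosiglitazone. It was 6.80-fold lower (adjusted p = 0.00031) by the fitted means, but only 1 of 3 rosiglitazone arrays detected it and its rosiglitazone mean of 4.58 lay below the lowest detected signals, so the size of this fold is uncertain. Cd52, which encodes a small lipid-anchored glycopeptide, gave 11.01, 10.61 and 11.13 log2 units untreated and 8.57, 8.78 and 7.50 with rosiglitazone. Rosiglitazone replicate 3 was more than 1 log2 unit below the other rosiglitazone arrays, and the groups stayed apart, 6.21-fold lower (SE 0.31, adjusted p = 0.0011), a call lost without a detection filter (adjusted p = 0.052).

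The tetraspanins Cd53 and Cd37 organise receptors into membrane domains. Cd53 gave 8.19, 7.28 and 7.47 log2 units untreated and 5.65, 6.31 and 4.74 with rosiglitazone, a wide spread in both groups without overlap, and was 4.22-fold lower (adjusted p = 0.014); without untreated replicate 1 the call was lost (adjusted p = 0.082), as it was without a detection filter (adjusted p = 0.18). No rosiglitazone array detected Cd37, which was at least 1.85-fold lower, from 5.59 ± 0.44 log2 units (SD, n = 3; adjusted p = 0.024). Selplg, which encodes the selectin ligand PSGL-1, was 2.36-fold lower (adjusted p = 0.048). Itgb2, which only 2 rosiglitazone arrays detected, encodes CD18, the common beta chain of the leukocyte integrins, and was 2.14-fold lower (adjusted p = 0.038). These were the least stable calls of the whole list: of the alternative settings tried, 13 of 18 ended the call of Selplg, 10 of 17 that of Itgb2 and 10 of 17 that of Cd37. Leaving out any 1 of the 6 arrays ended the call of Selplg (adjusted p up to 0.21). That of Itgb2 ended without untreated replicate 1 or 2 or rosiglitazone replicate 2 or 3 (up to 0.17), and that of Cd37 without untreated replicate 1 or 3 or rosiglitazone replicate 1 or 2 (up to 0.11). Lst1, a small transmembrane protein gene of myeloid cells, gave 7.86, 7.52 and 8.38 log2 units untreated and 7.21, 7.56 and 6.93 with rosiglitazone. Its groups overlapped, and the log2 change of -0.68 did not pass (adjusted p = 0.28). Evi2a, a membrane protein gene that lies within an intron of Nf1, gave 7.34, 7.23 and 7.72 log2 units untreated and 5.68, 6.52 and 6.80 with rosiglitazone. Its groups did not overlap, but the log2 change of -1.10 did not pass (adjusted p = 0.087), although it did without rosiglitazone replicate 3 (adjusted p = 0.023).

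Among phosphatases and kinases, 1 gene of each kind fell. Ptpn6 encodes SHP-1, which is recruited by inhibitory receptors and dampens their neighbours' signals. Its probe gave 8.27, 8.20 and 8.40 log2 units untreated and 6.38, 6.04 and 6.10 with rosiglitazone. Spread within each group was small beside the gap, and Ptpn6 was 4.34-fold lower (SE 0.17, adjusted p = 0.00031). Btk, a Tec-family kinase that activates phospholipase C gamma 2, gave 6.40, 6.27 and 6.68 log2 units untreated and 4.70, 4.95 and 4.36 with rosiglitazone. It was 3.43-fold lower by the fitted means (adjusted p = 0.001), with the same limit: 1 of 3 rosiglitazone arrays detected it and its rosiglitazone mean of 4.67 lay at background. Fgr, a Src-family kinase of myeloid cells, gave 5.08, 4.65 and 4.83 log2 units untreated and 4.88, 4.68 and 4.51 with rosiglitazone. These values lie at the edge of detection in both groups, they overlapped, and the log2 change of -0.16 did not pass (adjusted p = 0.8).

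The adaptor Lat2 showed a steep fall. Lat2 encodes a transmembrane scaffold, also called NTAL or LAB, that becomes phosphorylated after Fc receptor or B cell receptor engagement. It gave 9.37, 9.10 and 9.38 log2 units untreated and 6.70, 6.73 and 5.73 with rosiglitazone. The untreated arrays lay within 0.3 log2 units of each other and rosiglitazone replicate 3 was the lowest, 7.42-fold lower over the groups (SE 0.26, adjusted p = 0.00034). Pik3ap1, whose product BCAP links receptors to phosphoinositide 3-kinase, gave 5.69, 6.39 and 5.62 log2 units untreated and 4.42, 4.24 and 4.27 with rosiglitazone. No rosiglitazone array detected it, and it was at least 2.28-fold lower (adjusted p = 0.0033; adjusted p = 0.053 without a detection filter). Sash3, which encodes the lymphocyte adaptor SLY1, gave 5.28, 4.92 and 5.40 log2 units untreated and 4.31, 4.72 and 4.44 with rosiglitazone. Only 1 rosiglitazone array detected it. Its groups did not overlap, and the log2 change of -0.71 did not pass (adjusted p = 0.12).

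The enzymes of phospholipid signalling did not pass. Plcg2 encodes phospholipase C gamma 2, which cleaves the membrane lipid PIP2, and gave 7.09, 6.91 and 6.80 log2 units untreated and 6.36, 5.78 and 5.17 with rosiglitazone. Its rosiglitazone values were spread over more than 1 log2 unit, all below the untreated values, and the log2 change of -1.17 had an adjusted p of 0.059. Pik3cg, the phosphoinositide 3-kinase subunit that answers to G protein-coupled receptors, gave 6.33, 6.05 and 5.82 log2 units untreated and 5.60, 4.91 and 4.75 with rosiglitazone. Here too the groups did not overlap, and the log2 change of -0.98 did not pass (adjusted p = 0.081). Of 18 alternative settings, 5 made a call for Plcg2 and 3 for Pik3cg, so both lay near the threshold. Without rosiglitazone replicate 1 the adjusted p was 0.011 for Plcg2 and 0.019 for Pik3cg.

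All 4 kept genes that control small GTPases of the cytoskeleton fell, with log2 changes from -2.35 to -1.44. Arhgap25, a Rac-inactivating protein of phagocytes, gave 7.27, 7.17 and 7.35 log2 units untreated and 4.91, 5.01 and 4.81 with rosiglitazone. Spread within each group was the smallest relative to the gap in this group of genes, and Arhgap25 was 5.10-fold lower (SE 0.16, adjusted p = 0.00031). Vav1, the exchange factor that activates Rac after tyrosine phosphorylation, gave 7.48, 7.02 and 7.43 log2 units untreated and 5.80, 5.93 and 4.89 with rosiglitazone. It was 3.41-fold lower (adjusted p = 0.0061; adjusted p = 0.096 without a detection filter), with the lowest value on rosiglitazone replicate 3. Arhgdib encodes a GTPase dissociation inhibitor of blood cells and gave 9.44, 9.32 and 9.50 log2 units untreated and 8.02, 8.07 and 7.86 with rosiglitazone. It was 2.71-fold lower (adjusted p = 0.001), and Arhgap30, another GTPase-activating protein gene, 2.93-fold lower (adjusted p = 0.0011).

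Every one of the 6 actin regulators fell. Nckap1l encodes Hem1, the blood-cell subunit of the WAVE complex that starts branched actin networks. Its deposited intensities before any correction were 727, 391 and 690 units untreated and 133, 189 and 110 with rosiglitazone. After normalization they became 9.02, 8.93 and 8.87 log2 units untreated and 6.33, 6.59 and 5.36 with rosiglitazone. The untreated arrays differed by less than 0.2 log2 units, and the gene was 7.19-fold lower (SE 0.28, adjusted p = 0.00051). Myo1f, a single-headed myosin of neutrophils and macrophages, gave 7.74, 6.93 and 7.61 log2 units untreated and 5.15, 5.51 and 4.62 with rosiglitazone. It was 5.04-fold lower (adjusted p = 0.0011), but only 2 rosiglitazone arrays detected it, so the size of this fold is uncertain. Coro1a, which encodes coronin 1A of the actin cortex, gave 8.98, 8.54 and 9.48 log2 units untreated and 7.19, 7.25 and 6.64 with rosiglitazone. It was 3.93-fold lower (adjusted p = 0.0023; adjusted p = 0.061 without a detection filter). Was, the gene of the Wiskott-Aldrich syndrome protein that activates the Arp2/3 complex, was 3.67-fold lower, and Hcls1, a cortactin-like substrate of tyrosine kinases, 3.01-fold lower, with adjusted p = 0.001 and 0.002. Lcp1, which encodes the actin-bundling protein L-plastin, gave 6.41, 6.10 and 6.26 log2 units untreated and 4.68, 4.56 and 4.42 with rosiglitazone. No rosiglitazone array detected it, and it was at least 2.94-fold lower (adjusted p = 0.00055).

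Of the transcription factors, Ikzf1, which encodes Ikaros, a zinc-finger regulator of blood-cell development, gave 6.45, 6.46 and 6.65 log2 units untreated and 5.42, 5.24 and 4.78 with rosiglitazone and was 2.59-fold lower (adjusted p = 0.0047). Spi1, which encodes PU.1, gave 4.76, 5.52 and 5.35 log2 units untreated and 4.32, 4.66 and 4.19 with rosiglitazone. No rosiglitazone array detected its probe. The groups did not overlap, and the level, at least 1.42-fold lower, did not pass (adjusted p = 0.13). The letters GAGGAAG, which PU.1 binds, were in 10 of 26 promoters of members that fell. They were also in 6 of 14 promoters of members that did not pass or were not tested. A link between the Spi1 signal and these genes was not tested, and the level of PU.1 protein was not measured.

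The remaining 5 genes, of the endosome, lysosome and other functions, all fell. Laptm5, a lysosomal membrane protein gene that limits receptor levels at the surface, gave 12.39, 12.29 and 12.51 log2 units untreated and 10.82, 10.92 and 9.68 with rosiglitazone. It was 3.79-fold lower (adjusted p = 0.0062; adjusted p = 0.11 without a detection filter). Unc93b1, which carries nucleic acid-sensing Toll-like receptors to endosomes, gave 9.66, 9.47 and 10.00 log2 units untreated and 8.05, 8.17 and 8.09 with rosiglitazone and was 3.05-fold lower (adjusted p = 0.001). The rosiglitazone arrays agreed within 0.2 log2 units for Unc93b1 but spanned more than 1 unit for Laptm5. Dpep2, a membrane dipeptidase gene whose product cleaves leukotriene D4, gave 8.82, 8.65 and 8.69 log2 units untreated and 5.76, 6.42 and 5.10 with rosiglitazone. It had the most negative log2 change of the 34 genes, -2.96 (SE 0.29, adjusted p = 0.00046). Arl11, an Arf-like GTPase gene, gave 7.15, 6.62 and 7.26 log2 units untreated and 4.49, 4.57 and 4.53 with rosiglitazone. No rosiglitazone array detected it, and it was at least 4.93-fold lower (adjusted p = 0.00031). Rassf4, a Ras-association domain protein gene, was 4.47-fold lower (adjusted p = 0.00031), with a mean of 7.99 ± 0.25 log2 units untreated and 5.83 ± 0.10 with rosiglitazone (SD, n = 3 each).

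**Figure D2:**
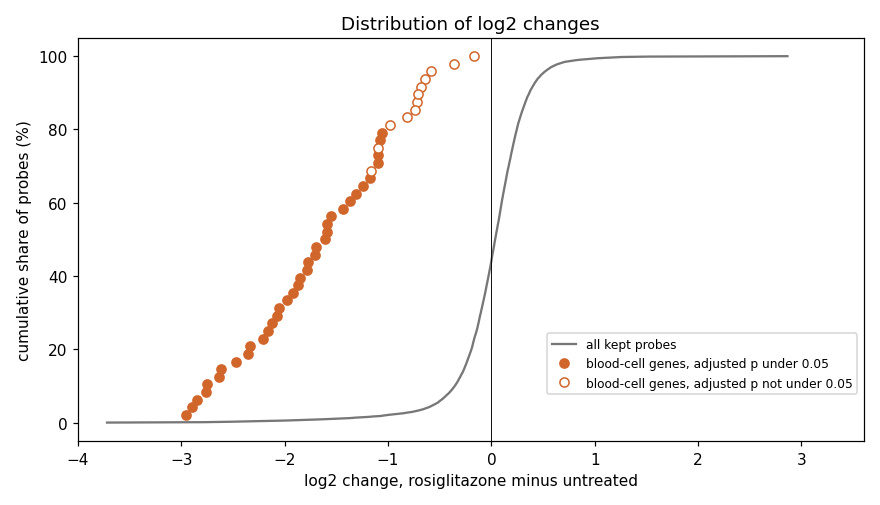
Cumulative share of probes in percent (vertical axis) against log2 change, rosiglitazone minus untreated (horizontal axis), for all 16442 kept probes (grey line) and the 48 kept probes of the blood-cell genes (circles, filled where the adjusted p was under 0.05). The grey line crosses 0 near its middle, with a median of 0.04, while all 48 circles lie left of 0.

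Several kept probes measured 9 of the genes, 23 probes in all. For 3 of them, Cd52, Dpep2 and Ptpn6, the dimmest probe was detected on no rosiglitazone array and gives only a lower bound, at least 1.43-fold, 1.41-fold and 1.39-fold lower, so it cannot be set against the brightest; none of these dim probes passed (adjusted p = 0.22, 0.055 and 0.12). In all 6 of the others the brightest probe had a more negative change than the dimmest. Every kept probe fell for 4 of them, namely Coro1a and Rassf4 with 4 probes each and Lat2 and Unc93b1 with 2 each. For Rassf4 the log2 change was -2.16 at an untreated level of 7.99 log2 units and -1.07 at 5.61, where 1 of 3 rosiglitazone arrays detected the probe. For Unc93b1, detected throughout by both probes, it was -1.61 at 9.71 and -1.06 at 7.09. Selplg had a dim probe at 5.23, detected on 1 rosiglitazone array, with -0.59 (adjusted p = 0.15). By construction, the offset added before the logarithm makes the log2 change of a dim probe smaller. How much of the gap between probes of a gene it accounts for was not tested, nor were other differences between the probes. Folds of genes whose only probe is dim may be understated on this scale.

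**Figure D3:**
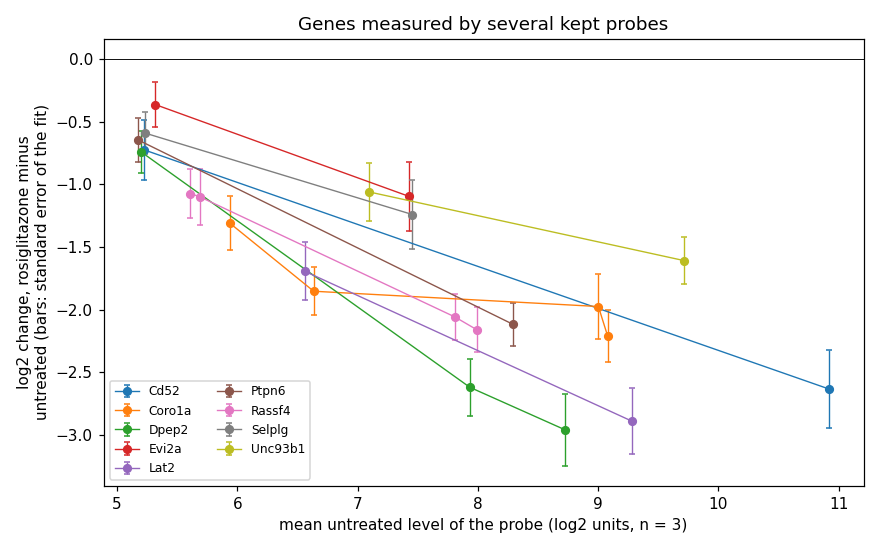
Log2 change, rosiglitazone minus untreated, with the standard error of the fit (vertical axis) against the mean untreated level in log2 units (horizontal axis) for the 23 kept probes of the 9 genes with several; lines join probes of a gene. The dimmest probes of Cd52, Dpep2 and Ptpn6 were detected on no rosiglitazone array and are drawn at their fitted change; in the other 6 genes the dimmest probe lies nearer to 0 than the brightest.

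Broadly expressed relatives of these genes, proteins of the same families that are not restricted to blood cells, were measured on the same arrays. Of 31 such genes with a kept probe, of 35 listed, 0 passed an adjusted p of 0.05 in limma and 2 had an unadjusted p under 0.05. Over all 9760 genes the share that passed was 2.87%, so a count of 0 does not set these 31 apart from genes in general. The median log2 change of the 31 was -0.09. Some were dim on the untreated arrays, among them Pik3ca (mean 4.53 log2 units), Arhgap31 (4.77), Cttn (4.92) and Arhgap22 (5.10). A fall could hardly show at such levels. Beside Nckap1l, its relative Nckap1 gave 7.11, 6.64 and 6.92 log2 units untreated and 7.15, 7.43 and 7.09 with rosiglitazone, a difference of 0.33 that missed the threshold (adjusted p = 0.55). The ubiquitous SHP-2 gene Ptpn11, relative of Ptpn6, gave 11.29, 11.45 and 11.16 log2 units untreated and 11.36, 11.38 and 11.34 with rosiglitazone. Its groups overlapped and its log2 change was 0.06 (adjusted p = 0.93). Wasl, which encodes N-WASP, and Coro1b, a coronin of many tissues, changed by 0.02 and -0.05 log2 units without passing (adjusted p = 0.98 and 0.96). Dpep1 had 0.07 beside -2.96 for Dpep2, and the beta 1 integrin gene Itgb1 -0.13 beside -1.10 for Itgb2. The smallest p-values were those of the myosin gene Myo1e, with a log2 change of -0.74 (adjusted p = 0.071), and of the lysosomal gene Laptm4a, with 0.61 (adjusted p = 0.15). Myo1e passed in 5 of the alternative settings and Laptm4a in 1. The difference between a blood-cell gene and its relative was not tested, and the changes are given side by side.

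**Figure D4:**
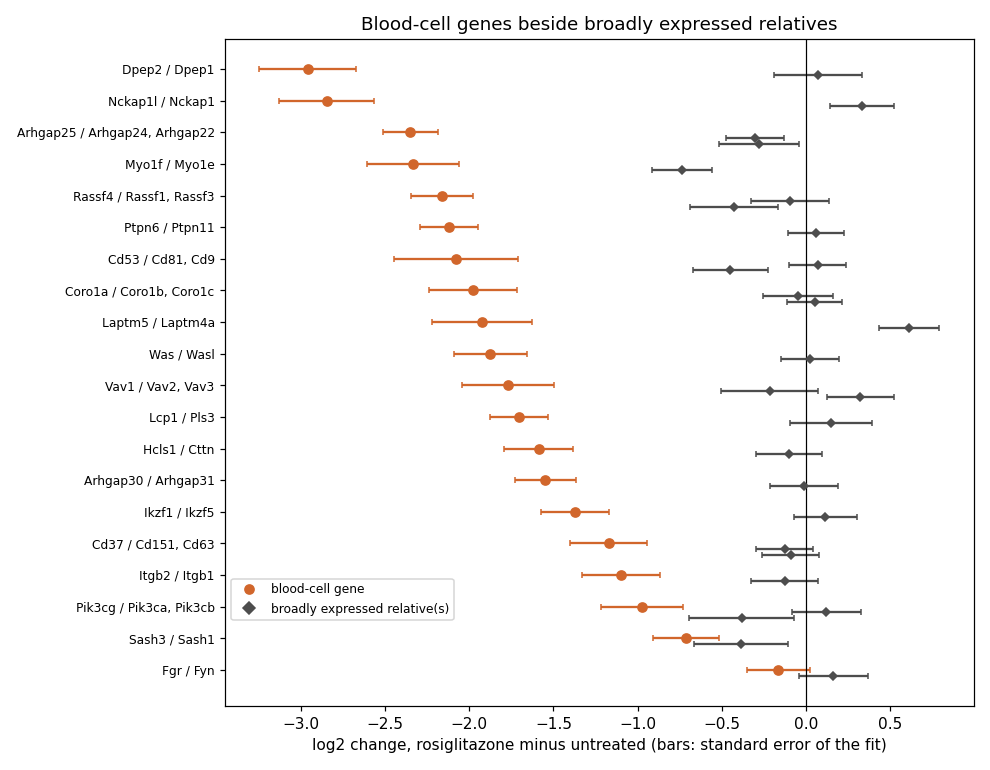
Log2 change, rosiglitazone minus untreated, with the standard error of the fit (horizontal axis) for blood-cell genes (orange circles) and their broadly expressed relatives (grey diamonds). A row is drawn for each blood-cell gene that has a relative with a kept probe, and other blood-cell genes are not shown. Lcp1 and Cd37, which no rosiglitazone array detected, are drawn at their fitted change. The grey diamonds lie between -0.74 and 0.61, and most orange circles lie left of -1.

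Other genes of blood-cell signalling, outside the list, were examined in the same way. Of 76 listed, 43 had a kept probe; 15 fell, 0 rose and 28 did not pass, with a median log2 change of -0.73 (-0.66 with the 5 genes undetected with rosiglitazone at their bounds); 42 of the 43 had a negative change. The 8 with the smallest p-values were Cyth4, Fyb, Tyrobp, Arhgap9, Sla, Irf5, Gmfg and Dok2. Cyth4, an exchange factor for Arf GTPases, gave 10.18, 9.99 and 10.25 log2 units untreated and 8.05, 7.81 and 7.22 with rosiglitazone, 5.47-fold lower (adjusted p = 0.00034). Tyrobp encodes DAP12, the signalling chain of Trem2 and related receptors, and was 4.62-fold lower (adjusted p = 0.00072). Fyb, an adaptor gene, and Arhgap9, a GTPase-activating protein gene, went undetected on the rosiglitazone arrays and were at least 2.91-fold and at least 2.46-fold lower (adjusted p = 0.00055 and 0.0012). The inhibitory adaptor gene Dok2 was 3.70-fold lower, the adaptor gene Sla 3.16-fold, the interferon regulatory factor gene Irf5 3.07-fold and the glia maturation factor gene Gmfg 2.74-fold, with adjusted p = 0.0076, 0.0052, 0.0062 and 0.0074. Among bright genes of this list that did not pass were Sirpa, which encodes the receptor for CD47, with a log2 change of -0.77 (adjusted p = 0.07), and the Ras exchange factor gene Rasgrp4, with -0.08 (adjusted p = 0.91). Csk, Wipf1, Bcl10 and Skap2, with log2 changes of -0.14, -0.01, -0.16 and -0.66, did not pass either. Itgb7, named here after its value was seen, was the only one of the 43 with a positive change (0.99, adjusted p = 0.2). Ptpre, also named after its values were seen, was counted by its brightest probe (log2 change -0.02, adjusted p = 0.99). Its dimmer kept probes differed, with -1.02 and -0.99, which passed (adjusted p = 0.029 and 0.028), and 0.13, which did not (adjusted p = 0.84). The count of 15 was 9 without untreated replicate 1, 9 among genes detected on all 6 arrays and 5 without a detection filter.

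Markers of other cell types were read on the same arrays. Of 17 macrophage markers 14 had a kept probe, and 12 of these fell, with a median log2 change of -2.55; the summed level of the 14 was 13074 to 17268 units untreated and 1864 to 4330 with rosiglitazone. Of 11 T and NK cell markers with a probe, 6 were detected on 0 arrays, among them Cd3e, Cd3g, Cd4 and Cd8a. Of the 4 that were kept, Il7r fell (log2 change -1.33, adjusted p = 0.0013 in limma). Only 2 of the 4 had a negative change, and their median log2 change was -0.11. The list's summed level was 158 to 171 units untreated and 112 to 131 units with rosiglitazone. Its mean was 5.11, 5.33 and 5.27 log2 units untreated and 4.84, 5.02 and 4.81 with rosiglitazone, near the lowest detected signals. Of 6 B cell markers with a probe, 5 were detected on 0 arrays, Pax5 and Ms4a1 among them, and the kept one, Cd79b, had a log2 change of 0.29 (adjusted p = 0.7). No mast cell, neutrophil or dendritic cell marker passed among 3, 4 and 3 kept in limma, where 0, 0 and 1 had an unadjusted p under 0.05. Of 3 kept platelet markers, Pf4, which macrophages also express, fell (log2 change -2.34, adjusted p = 0.00055). All 10 progenitor markers with a probe, Pdgfra, Dpp4, Pi16 and Thy1 among them, were detected on every array, with a median log2 change of 0.17 and 0 past the threshold in limma, 0 also at an unadjusted p under 0.05. Of 7 kept mural markers, Notch3 and Mcam fell, and all 7 had a negative change (median log2 change -0.65). No erythroid, endothelial, mesothelial or adipocyte marker passed among 2, 8, 3 and 3 kept in limma. Each of these lists had 1 marker at an unadjusted p under 0.05. The change was negative for 2 of 2 erythroid markers (median -1.13) and 8 of 8 endothelial markers (median -0.25). It was negative for 0 of 3 mesothelial markers (median 0.35) and 2 of 3 adipocyte markers (median -0.17).

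Within each group the arrays were not alike. Among the 34 genes, rosiglitazone replicate 3 held the lowest rosiglitazone value for 25, or 73.5%, beside 35.7% of all kept probes. It was also the lowest for 13 of 14 macrophage markers, whose mean was 6.90, 7.06 and 6.06 log2 units on rosiglitazone replicates 1, 2 and 3. Untreated replicate 2 held the lowest untreated value for 26 of the 34 genes, or 76.5%, beside 36.3% of all kept probes, and for 11 of 14 macrophage markers. The same array had the highest mean of the 2 erythroid markers, 10.19 log2 units beside 8.62 and 7.17 on untreated replicates 1 and 3. The part of that difference in the members' values was not tested. The mean of the 34 genes was 7.59, 7.36 and 7.63 log2 units untreated and 5.87, 5.96 and 5.47 with rosiglitazone. For the relatives it was 8.24, 8.14 and 8.14 untreated and 8.01, 8.14 and 8.16 with rosiglitazone. Without rosiglitazone replicate 3, 26 genes fell, with a median log2 change of -1.61, so the count does not rest on that array.

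**Figure D5:**
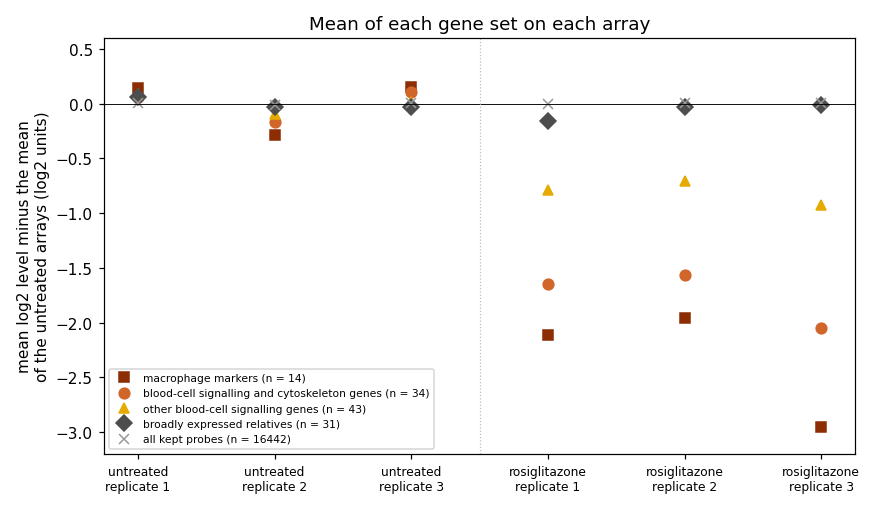
Mean log2 level of each gene set on each array, after subtracting the mean of its 3 untreated arrays (vertical axis, log2 units), for macrophage markers, the blood-cell signalling and cytoskeleton genes, other blood-cell signalling genes, broadly expressed relatives and all kept probes. On every rosiglitazone array the first 3 sets lie below their untreated values, and the macrophage markers and the blood-cell genes lie lowest on rosiglitazone replicate 3.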

How the data were processed

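Gene expression in 6 samples was measured on Illumina mouse bead arrays. The authors deposited the intensity of every probe on a linear scale, with no background subtracted as far as the values show, and a detection p-value beside each; scanner software and array processing were not given in the sources used here. A second deposited table holds intensity normalized between arrays, by a method not given, and equals the series table (largest difference 0). The detection columns carry no sample name; each was tied to the intensity column with which its p-value did not rise, with at most 1 break in order against 16826 or more for any other column. The detection p-values of the normalized table were not used.

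Background was corrected with normexp from the detection p-values (offset 16), followed by quantile normalization and log2 of the deposited intensity. Groups were compared with lmFit and eBayes in limma 3.58.1 (R 4.3.3), with no covariates, over the 16442 probes whose detection p-value fell below 0.05 on 3 or more arrays. A gene is shown by its brightest kept probe, named from the platform annotation. A gene not detected on any array of a group was compared with whichever was higher on each array, its own value or the lowest signal detected there, and is given as at least N-fold. The adjusted p beside such a bound is that of the limma fit on the normalized values and does not test the bound. Members were named or counted in full; of the other signalling genes, the 8 with the smallest p-values and the 6 of highest mean level that did not pass were named. The members and lists were chosen with earlier results of these data known. Total intensity was 9478692 to 14831319 units and 15492 to 17379 probes were detected per array; the number of arrays limits the precision. The code was tested on simulated data. The labels do not say that same-numbered replicates were paired, and the numbers were not taken as pairs. Deviations of same-numbered replicates correlated at 0.05, -0.01 and 0.35, which does not settle whether they were. Arrays of a group correlated at 0.971 to 0.985, and arrays of different groups at 0.957 to 0.974.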

Additional observations from a re-analysis of the deposited data

How the results depend on the processing

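All 34 genes kept a negative log2 change under every one of the 18 alternatives in which they were tested, and 18 of the 27 genes that fell kept their call throughout. The other 9 were Selplg, Itgb2, Cd37, Cd53, Vav1, Coro1a, Pik3ap1, Cd52 and Laptm5, all lost without a detection filter. The count of 27 genes was 18 without a detection filter and 18 among genes detected on all 6 arrays, 23 at an adjusted p of 0.01, and 24 to 30 with other background, normalization, variance, weight and block settings. Leaving out each array in turn gave 23 to 27 genes and 28 to 34 probes, medians of -1.83 to -1.61, 0 relatives throughout and 9 to 16 other signalling genes. The count of 36 probes was 22 without a filter and 22 among probes detected on all 6 arrays; fewer probes were tested there, 28 of 48. Other signalling genes numbered 5 without a filter and 9 with detection on all arrays. The median of -1.74 was -1.001 without background correction, -1.28 with an offset of 50 and -1.02 on the authors' normalized table; the first 2 leave or add more background to each value by construction, and the cause of the third was not tested. Relatives past the threshold numbered 1 without background correction, 1 with an offset of 50, 1 on the authors' normalized table, 1 with array weights and 2 with a trended, robust variance; the cause was not tested. With the replicate number as a block, 39 probes, 30 genes, 17 other signalling genes and 0 relatives passed, with a median of -1.74. The added genes were Plcg2, Pik3cg and Evi2a. The labels do not say whether same-numbered arrays were paired. The median of all kept probes stayed between 0.006 and 0.040 log2 units in every setting. Genes undetected with rosiglitazone have a lower bound, and the change of genes with dim probes may be understated.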
